A study of Homo sapiens with 6 samples.

Results

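The genes described here encode 10 chaperones and proteases that fold and degrade proteins inside mitochondria: HSPD1, HSPE1, HSPA9, TRAP1, LONP1, CLPP, CLPX, AFG3L2, YME1L1 and SPG7. They were taken by symbol from a table of 19330 transcripts, 1 per gene, in which all 10 were listed. The table held ribosome profiling (Ribo-Seq) of K562, an established human chronic myelogenous leukemia line, as footprint counts, where a footprint is a piece of mRNA that a ribosome shields from nuclease. Both groups received a lentiviral CRISPR/Cas9 vector, were selected with puromycin for 48 h and were collected 10 days post infection. In the 3 sgN6AMT1 libraries the guide cut N6AMT1, which encodes the methyltransferase of the translation release factor eRF1, and in the 3 sgCtrl libraries guides against olfactory receptor genes served as control (OR11A1 and a gene given as OR2M49 in the labels and OR2M4 in the methods). Which of those guides each sgCtrl library carried is not given in the sources used here. Each library came from its own lentiviral infection, and no clonal line is described, so a library is a selected population of transduced cells. The comparison of the groups asks how ribosome occupancy of nuclear-encoded mitochondrial genes differed upon N6AMT1 depletion.

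Nearly all mitochondrial proteins are made on cytosolic ribosomes and enter the organelle unfolded. In the matrix, mtHsp70 (HSPA9) pulls the incoming chain through the import channel and starts its folding, the barrel of HSP60 (HSPD1) with its lid HSP10 (HSPE1) completes it, and TRAP1 is the Hsp90 of the same compartment. Damaged or unassembled chains are unfolded and cut by ATP-driven proteases, namely LONP1 and the CLPX/CLPP complex in the matrix, the m-AAA protease (AFG3L2, alone or with SPG7) on the matrix face of the inner membrane and the i-AAA protease (YME1L1) on its other face.

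Because eRF1 reads stop codons, the last 15 coding bases of each transcript are shown in lower case, 5′ to 3′, with the stop codon in capitals. The sequences are those of the listed transcripts in GENCODE release 44 (GRCh38), and every stop codon lay in 1 piece in the last exon.
HSPD1: ggaggtggcatgttcTAA
HSPE1: ggaaagtacgtagacTGA
HSPA9: aaggaggaaaaacagTAA
TRAP1: gccctggagcgacacTGA
LONP1: ctggccgtggaacggTGA
CLPP: gtcccagctagcaccTGA
CLPX: gatgctgcaaacagcTAA
AFG3L2: gagaaagttgccaacTAG
SPG7: ccgacttggcccaagTAG
YME1L1: aagttggaagtgagaTGA

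The stop codons of the chaperone genes lie in GRCh38 for HSPD1 at chr2:197487046-197487048, HSPE1 at chr2:197503257-197503259, HSPA9 at chr5:138556037-138556039 and TRAP1 at chr16:3658129-3658131. Those of the protease genes lie for LONP1 at chr19:5692032-5692034, CLPP at chr19:6368708-6368710, CLPX at chr15:65150823-65150825, AFG3L2 at chr18:12329565-12329567, SPG7 at chr16:89557091-89557093 and YME1L1 at chr10:27111977-27111979. HSPE1, CLPP and SPG7 are on the plus strand and the others on the minus strand. Of these genes, 5 ended in TGA, 3 in TAA and 2 in TAG. Among the 8596 tested genes with a known stop codon, 49.1% ended in TGA, 29.7% in TAA and 21.2% in TAG. The median log2 fold change (sgN6AMT1 over sgCtrl) was 0.0089 for genes ending in TGA, -0.0052 for TAA and 0.03 for TAG. At an edgeR adjusted p under 0.05, 12.5% of TGA genes, 16.3% of TAA genes and 13.4% of TAG genes were lower. By the same rule 12.3%, 13.1% and 14.1% were higher. All 3 stop codons occurred among the chaperone and protease genes that were lower upon depletion, as TAA in HSPD1 and HSPA9, TGA in TRAP1 and LONP1, and TAG in AFG3L2. The single gene that was higher, YME1L1, ended in TGA. The part of the stop codon in these changes was not tested.

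The genes of the chaperonin and its lid stand head to head on chromosome 2, so that a short stretch between their start sites serves both. It is shown because the measured changes of the 2 genes are set side by side. The stretch is chr2:197500275-197500378 (RefSeq, GRCh38.p14), 104 bases with a GC content of 74%, given on the strand of HSPE1 (plus), with HSPD1 starting to its left on the minus strand. Capitals mark a match to the NRF1 motif, nearer the left, and an E-box.
HSPD1-HSPE1: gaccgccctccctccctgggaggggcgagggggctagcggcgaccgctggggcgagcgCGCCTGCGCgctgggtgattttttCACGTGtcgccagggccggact

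Relative to the HSPE1 start, these matches began at positions -46 and -22, and they did not overlap. Promoters from 250 bases before to 50 bases after a start were searched on both strands for 4 motifs in a RefSeq table that held 8 of the 10 genes, all but CLPP and YME1L1. The NRF1 motif (GCGCANGCG) was found for 5 of the 8 (HSPD1, HSPE1, CLPX, SPG7, LONP1), against 7.52% of all 35116 promoters. The E-box (CACGTG) was found for 4 (HSPD1, HSPE1, HSPA9, LONP1), against 7.26%. A short heat shock element (GAANNTTC) was found for 1, at a second start of HSPD1, against 6.77%. The core of the amino acid response element (TGATGNAAT), to which ATF4 and its relatives bind, was found for 0, against 0.991%. The shares of all promoters count single promoters, while the counts above are of genes. Counted by promoter, the matches were in 6 (NRF1), 4 (E-box), 1 (heat shock element) and 0 (amino acid response element) of 11. HSPD1 and HSPE1 share their NRF1 and E-box matches, several genes have more than 1 listed start, and the windows of SPG7 overlap. These counts are therefore a description of letters in a window.

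The libraries held between 1821356 and 2969736 footprint counts, and 9202 genes had enough counts to be tested. Pairs of libraries within a group differed by 1.25 to 1.68 chi-square per degree of freedom and pairs across groups by 4.89 to 7.04. The targeted gene N6AMT1 was covered by 25, 24 and 34 counts under sgCtrl against 10, 9 and 8 under sgN6AMT1 (log2 fold change -1.51, SE 0.31, edgeR adjusted p = 6.7e-05), in the direction of the labels. All 10 K562 markers checked were tested and none was at 0, and their summed level ran from 27324 to 28826 CPM in sgCtrl and from 27694 to 28629 CPM in sgN6AMT1. Most of that sum was HBG1 and HBG2, with means of 9553 and 9920 CPM in sgCtrl and 9483 and 9851 CPM in sgN6AMT1. The sum therefore says little about the other markers. Single markers moved with the depletion: 5 of the 10 were lower (log2 fold changes of -1.44 for LMO2, -0.37 for KLF1, -0.33 for TFRC, -0.29 for GATA1 and -0.27 for HBZ) and 2 were higher (0.48 for HBE1 and for TAL1), while HBG1 and HBG2 were among those that did not pass the threshold. Over all tested genes 13.9% were lower and 12.9% were higher (edgeR adjusted p under 0.05). The part of these markers in the results below was not tested. Among markers of other cell types, MS4A1 had 0 counts in every library and CD3E and ALB had at most 10 counts in any library, while EPCAM stood at 177 and 184 CPM and COL1A1 at 7.44 and 8.77 CPM in sgCtrl and sgN6AMT1 with adjusted p of 0.639 and 0.594. CPM, counts-per-million values, are relative to the library size scaled by edgeR's TMM factors, which were 0.9793 to 0.9838 in sgCtrl and 1.017 to 1.022 in sgN6AMT1.

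Upon N6AMT1 depletion, ribosome occupancy fell for 5 of the 10 genes: HSPD1, HSPA9, TRAP1, LONP1 and AFG3L2. It rose for 1, YME1L1. The other 4, HSPE1, CLPP, CLPX and SPG7, did not pass the threshold, an edgeR adjusted p of 0.05 over all 9202 genes. Across all tested genes 13.9% were lower and 12.9% were higher by the same rule. Calls are more frequent among abundant genes. Of the 4871 genes with at least the mean CPM of SPG7, the lowest of the 10, 21.1% were lower and 14.6% were higher. The genes past the threshold were more abundant, ranking from 42 (HSPD1) to 1591 (AFG3L2) by mean CPM. The share of calls at that level was not computed. In 6 of the 10 genes, those past the threshold, the groups did not overlap, against 37.5% of all tested genes. The median log2 fold change of the 10 genes was -0.16, beside 0.0063 over all tested genes, and 9 of 10 values were negative, of which those of HSPE1 and SPG7 turned positive when libraries were scaled to total counts alone. DESeq2, the tool of the study, called 4 of the 10 lower (HSPD1, HSPA9, TRAP1 and LONP1) and 0 higher, while over all genes it called 6.86% lower and 5.43% higher. At an unadjusted p under 0.05, 1 was higher by DESeq2 and 1 by edgeR, and limma-voom after adjustment called 1 higher and 5 lower. In a bulk culture, fewer cells of a kind and fewer footprints per cell cannot be told apart, and a footprint count reflects mRNA level as well as translation.

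The 10 genes together took 0.511%, 0.523% and 0.5005% of all counts in sgCtrl, while the depleted libraries gave 0.476%, 0.454% and 0.449%. The shares did not overlap between groups. Without HSPD1, the most abundant gene, they were 0.320%, 0.330% and 0.311% in sgCtrl and 0.289%, 0.279% and 0.279% in sgN6AMT1. Much of the fall lay in HSPA9, whose mean share was 0.140% in sgCtrl and 0.110% in sgN6AMT1. The groups were already apart in HSPA9, HSPD1 and TRAP1, so the separation of the summed shares is not a further result. The shares are of each library's own total, so they use no TMM factor and amount to scaling by total counts alone.

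**Figure D1:**
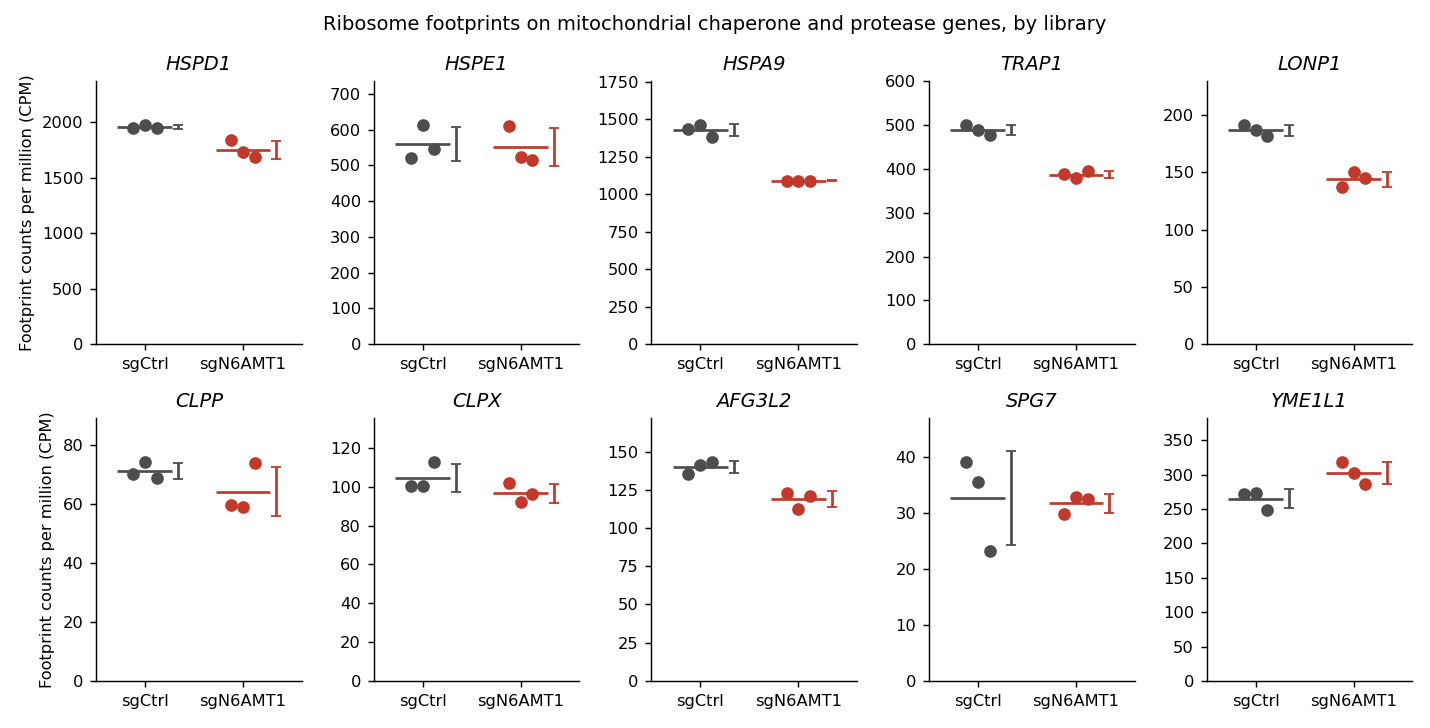
Footprint level in CPM of each of the 10 genes, 1 point per library, for sgCtrl (grey) and sgN6AMT1 (red), each panel with its own axis from 0; horizontal lines are means and bars are 1 SD (n = 3). The groups are apart in HSPD1, HSPA9, TRAP1, LONP1 and AFG3L2 (lower in sgN6AMT1) and in YME1L1 (higher), and overlap in HSPE1, CLPP, CLPX and SPG7.

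The matrix chaperonin came first in abundance. HSPD1 (chr2:197486586-197500274, minus strand, 12 exons) encodes HSP60, the barrel in which imported proteins fold. It stood at 1945, 1975 and 1944 CPM in sgCtrl and 1843, 1728 and 1684 CPM in sgN6AMT1. Every sgN6AMT1 library was below every sgCtrl library, and the spread was smaller among the sgCtrl libraries. The mean fell from 1955 ± 17.7 to 1752 ± 82.2 CPM (SD, n = 3), a log2 fold change of -0.16 (SE 0.044, 95% interval -0.25 to -0.07, edgeR adjusted p = 0.0035). This call was lost when libraries were scaled to total counts alone (log2 fold change -0.10, adjusted p = 0.0666).

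HSPE1 (chr2:197500379-197503449, plus strand, 4 exons) encodes HSP10, the lid that closes the barrel. It stood at 519, 613 and 546 CPM in sgCtrl and 611, 524 and 516 CPM in sgN6AMT1. The ranges overlapped almost entirely, with sgCtrl 2 and sgN6AMT1 1 the highest of their groups. The means were 559 ± 48.3 and 550 ± 52.8 CPM (SD, n = 3), and the log2 fold change of -0.03 had a 95% interval from -0.14 to 0.09 (edgeR adjusted p = 0.775). The interval overlaps that of HSPD1, so a different response of barrel and lid was not shown.

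HSPE1 and HSPD1 have 26 and 18 annotated pseudogenes in the genome, whose likeness in sequence was not measured here. HSPE1 also shares the first 169 of its 309 coding bases with the read-through gene HSPE1-MOB4. Reads from such a shared stretch can be split between rows of the table. HSPE1-MOB4 had 343, 547 and 369 counts under sgCtrl against 486, 420 and 282 under sgN6AMT1 (log2 fold change 0.02, edgeR adjusted p = 0.895). With both rows summed, an alternative added after seeing the data, the log2 fold change was -0.02 (adjusted p = 0.872). HSPA9, AFG3L2 and YME1L1 have 1 annotated pseudogene each, and the other 5 genes none.

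The matrix Hsp70 and Hsp90 both fell. HSPA9 (chr5:138553756-138575401, minus strand, 17 exons) encodes mtHsp70, also called mortalin, the motor subunit of protein import and a folding chaperone. It stood at 1438, 1462 and 1384 CPM in sgCtrl and 1086, 1090 and 1092 CPM in sgN6AMT1. The 3 depleted libraries were nearly equal and lay far below the sgCtrl libraries. That closeness rests on 3 values and is not read as the spread of the method. The mean fell from 1428 ± 40.2 to 1089 ± 2.80 CPM (SD, n = 3), a log2 fold change of -0.39 (SE 0.046, 95% interval -0.48 to -0.30, edgeR adjusted p = 1.50e-11), the most negative value of the 10.

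TRAP1 (chr16:3658037-3717524, minus strand, 18 exons) encodes the mitochondrial Hsp90. It stood at 501, 490 and 479 CPM in sgCtrl and 388, 379 and 395 CPM in sgN6AMT1. The groups did not overlap, and each spanned little of the distance between them. The log2 fold change was -0.34 (SE 0.055, 95% interval -0.45 to -0.23, edgeR adjusted p = 4.73e-07), and its interval overlaps that of HSPA9. Both genes kept their call in all 16 alternative settings, with adjusted p of at most 3.23e-07 for HSPA9 and 0.000174 for TRAP1.

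Of the matrix proteases, LONP1 fell while the 2 parts of the Clp complex did not pass the threshold. LONP1 (chr19:5691834-5720146, minus strand, 18 exons) encodes a single-protein protease that removes oxidised and misfolded matrix proteins and also acts as a chaperone with mtHsp70. It stood at 191, 187 and 182 CPM in sgCtrl and 137, 150 and 145 CPM in sgN6AMT1. The lowest sgCtrl library was above the highest sgN6AMT1 library. The mean fell from 187 ± 4.74 to 144 ± 6.65 CPM (SD, n = 3), a log2 fold change of -0.38 (SE 0.075, 95% interval -0.53 to -0.23, edgeR adjusted p = 3.15e-05). The call held in all 16 alternatives, with adjusted p up to 0.00117.

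CLPP (chr19:6361531-6370242, plus strand, 6 exons) encodes the proteolytic chamber of the Clp protease. It stood at 70.3, 74.5 and 69.0 CPM in sgCtrl and 59.6, 59.2 and 73.8 CPM in sgN6AMT1. Depleted libraries 1 and 2 were below all sgCtrl libraries, and library 3 lay within their range. The log2 fold change was -0.17 (95% interval -0.39 to 0.05, edgeR adjusted p = 0.280). It passed the threshold in 1 alternative, with trends on coding length and GC content removed (-0.26, adjusted p = 0.0405).

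CLPX (chr15:65148219-65185342, minus strand, 14 exons) encodes the ATPase that unfolds substrates and feeds them into CLPP. It stood at 100.5, 100.3 and 113 CPM in sgCtrl and 102, 92.0 and 96.1 CPM in sgN6AMT1. The groups overlapped through the first depleted library. The log2 fold change was -0.11 (95% interval -0.29 to 0.07, edgeR adjusted p = 0.414), and neither Clp interval excludes 0 or the value of HSPD1. The CLPP interval also holds the value of LONP1 (-0.38), and that of CLPX does not. Differences between these genes were not tested.

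Of the 3 inner membrane protease genes, 1 fell (AFG3L2), 1 rose (YME1L1) and SPG7 did not pass the threshold. AFG3L2 (chr18:12328944-12377227, minus strand, 17 exons), the m-AAA subunit that can form the protease by itself, stood at 136, 141 and 143 CPM in sgCtrl and 123, 113 and 121 CPM in sgN6AMT1. The groups did not overlap. The mean fell from 140.0 ± 4.01 to 119 ± 5.50 CPM (SD, n = 3), a log2 fold change of -0.24 (SE 0.083, 95% interval -0.40 to -0.07, edgeR adjusted p = 0.0236). The call was lost with DESeq2 (-0.25, adjusted p = 0.131), with total counts alone (-0.18, 0.0923) and without sgCtrl 2 (adjusted p = 0.0649), sgCtrl 3 (0.0673) or sgN6AMT1 2 (0.143).

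SPG7 (chr16:89508410-89557744, plus strand, 17 exons) encodes paraplegin, the m-AAA subunit that needs AFG3L2 as a partner. It had the fewest counts of the 10 genes, 78, 103 and 47 under sgCtrl against 68, 76 and 60 under sgN6AMT1. These gave 39.2, 35.5 and 23.2 CPM in sgCtrl and 29.8, 32.8 and 32.6 CPM in sgN6AMT1, with all depleted libraries inside the sgCtrl range. The log2 fold change of -0.05 had the widest 95% interval of the 10, -0.35 to 0.25 (edgeR adjusted p = 0.836), which includes 0 and the value of AFG3L2, so a change of that size was not detectable at this depth.

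YME1L1 (chr10:27110454-27154359, minus strand, 20 exons) encodes the i-AAA protease, which cuts the fusion protein OPA1 and turns over proteins of the intermembrane space. It stood at 272, 274 and 249 CPM in sgCtrl and 319, 302 and 287 CPM in sgN6AMT1. Every depleted library was above every sgCtrl library. The mean rose from 265 ± 13.8 to 303 ± 16.0 CPM (SD, n = 3), a log2 fold change of 0.19 (SE 0.063, 95% interval 0.07 to 0.32, edgeR adjusted p = 0.0139). The direction held in every alternative, but the call was lost with DESeq2 (0.18, adjusted p = 0.121) and without sgCtrl 3 (adjusted p = 0.107), sgN6AMT1 1 (0.0947) or sgN6AMT1 2 (0.0534).

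**Figure D2:**
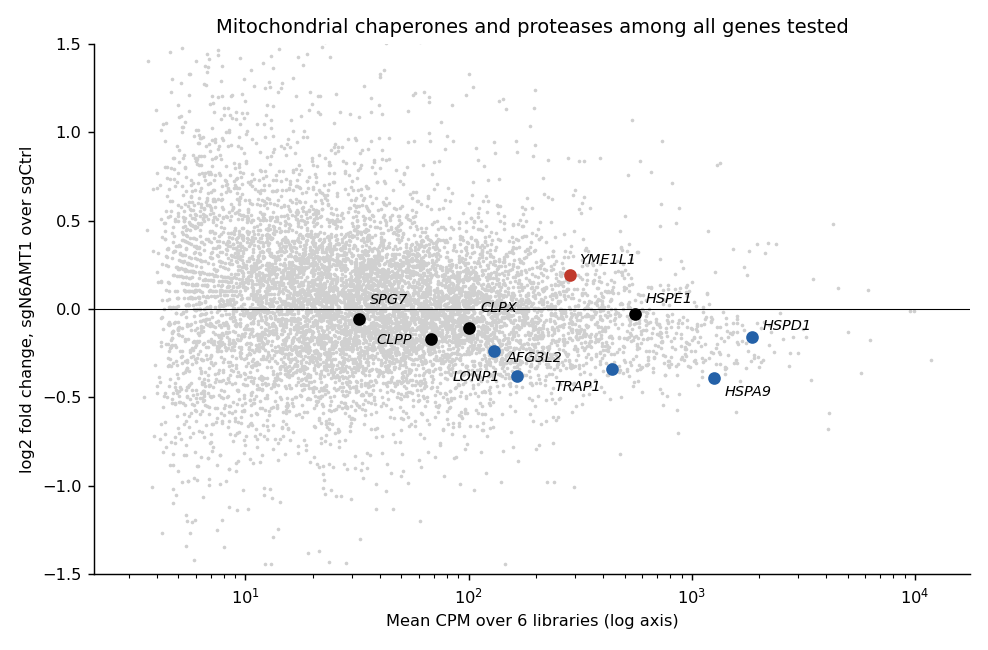
Log2 fold change (sgN6AMT1 over sgCtrl) against mean CPM over the 6 libraries (log axis) for all tested genes (light grey) and the 10 chaperone and protease genes (blue, lower; red, higher; black, not past the threshold); 103 tested genes lie outside the plotted range. HSPD1, HSPA9 and TRAP1 are among the most abundant genes and lie below 0, while HSPE1, more abundant than TRAP1, lies near 0 (-0.03). YME1L1 lies above 0.

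Levels of the 10 genes can be compared only per length, so CPM was divided by the length of the coding sequence in kilobases to give a footprint density. In sgCtrl the density of HSPE1 was the highest at 1810 ± 156 CPM per kilobase (SD, n = 3), followed by HSPD1 at 1135 ± 10.3, HSPA9 at 700.0 ± 19.7 and TRAP1 at 232 ± 5.23. The order of folding machines was therefore lid, barrel, Hsp70, Hsp90. Footprints counted on HSPE1-MOB4, at 181 CPM in sgCtrl and 183 CPM in sgN6AMT1, are not part of the HSPE1 density. To the extent that they came from HSPE1, its density and its ratio to HSPD1 below are too low. All proteases followed: YME1L1 at 114 ± 5.93, CLPP at 85.5 ± 3.41, LONP1 at 64.9 ± 1.65, AFG3L2 at 58.5 ± 1.67, CLPX at 55.0 ± 3.80 and SPG7 at 13.8 ± 3.54. The highest density was 131 times the lowest. AFG3L2 and CLPX were the only neighbours in this order whose libraries overlapped.

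In sgN6AMT1 the first 6 places and the last were unchanged in order. Densities there were 1781 ± 171 for HSPE1, 1017 ± 47.7 for HSPD1, 534 ± 1.37 for HSPA9, 183 ± 3.86 for TRAP1, 130 ± 6.88 for YME1L1, 77.0 ± 9.99 for CLPP and 13.4 ± 0.709 CPM per kilobase for SPG7 (SD, n = 3). The middle places were held by CLPX at 50.8 ± 2.55, LONP1 at 49.95 ± 2.31 and AFG3L2 at 49.7 ± 2.30 CPM per kilobase, whose libraries overlapped from neighbour to neighbour. LONP1 stood above CLPX in every sgCtrl library, and the ranges of both overlapped upon depletion.

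**Figure D3:**
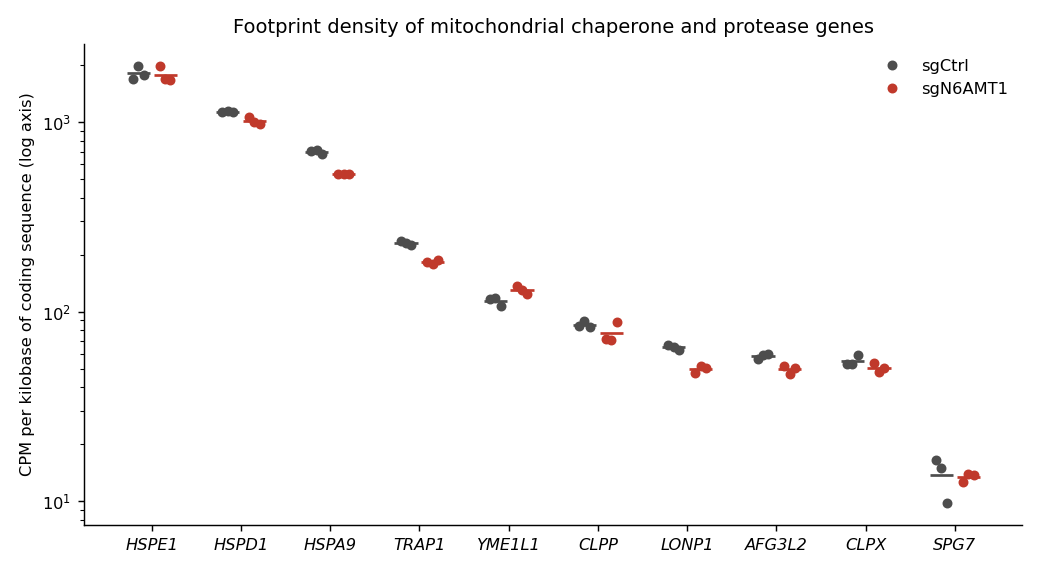
Footprint density (CPM per kilobase of coding sequence, log axis) of the 10 genes in each library, ordered by the sgCtrl mean; points are libraries and lines are means, with sgCtrl in grey and sgN6AMT1 in red (n = 3 each). Chaperones hold the 4 highest places and SPG7 the lowest in both groups, and LONP1, AFG3L2 and CLPX lie together in sgN6AMT1.

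Partner genes were compared as the ratio of their densities within each library, which needs no scaling between libraries. Of 5 pairs, 1 had ratios that did not overlap between groups, YME1L1 to AFG3L2, the catalytic proteins of the inner membrane's opposite faces. In CPM, YME1L1 was higher and AFG3L2 lower in every sgN6AMT1 library than in any sgCtrl library. Their ratio therefore could not overlap, and the separation is not a further result. Their ratio was 2.07, 2.00 and 1.79 in sgCtrl and 2.67, 2.76 and 2.45 in sgN6AMT1. The mean rose from 1.95 ± 0.145 to 2.63 ± 0.162 (SD, n = 3), a log2 difference of 0.43, which ranged from 0.37 to 0.48 when each library was left out. The 2-sided exact permutation p was 0.1, the smallest that 3 against 3 allows, and 0.5 after Benjamini-Hochberg adjustment over the 5 pairs, so no pair can pass the threshold in this design.

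The ratio of lid to barrel, HSPE1 to HSPD1, was 1.49, 1.73 and 1.56 in sgCtrl and 1.85, 1.69 and 1.71 in sgN6AMT1 (log2 difference 0.14, exact permutation p = 0.3, adjusted p = 0.5), and the difference ranged from 0.0869 without sgCtrl 1 to 0.20 without sgCtrl 2. The groups overlapped, since sgCtrl 2 was above 2 depleted libraries. The ratio of TRAP1 to HSPA9 was 0.336, 0.323 and 0.334 in sgCtrl and 0.344, 0.335 and 0.349 in sgN6AMT1 (log2 difference 0.05, exact permutation p = 0.2, adjusted p = 0.5). The ratio spanned only 0.323 to 0.349 over all 6 libraries, while each of the 2 genes fell.

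The ratio of the unfolding ATPase to the proteolytic chamber, CLPX to CLPP, was 0.626, 0.591 and 0.717 in sgCtrl and 0.748, 0.682 and 0.571 in sgN6AMT1 (log2 difference 0.04, exact permutation p = 0.8, adjusted p = 0.8). The ratio of SPG7 to AFG3L2 within the m-AAA protease was 0.292, 0.255 and 0.163 in sgCtrl and 0.245, 0.295 and 0.272 in sgN6AMT1 (log2 difference 0.23, exact permutation p = 0.6, adjusted p = 0.75). In both pairs the groups overlapped widely, and the sign of the difference turned when single libraries were left out: sgCtrl 2 or sgN6AMT1 1 for CLPX to CLPP, and sgCtrl 3 for SPG7 to AFG3L2.

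**Figure D4:**
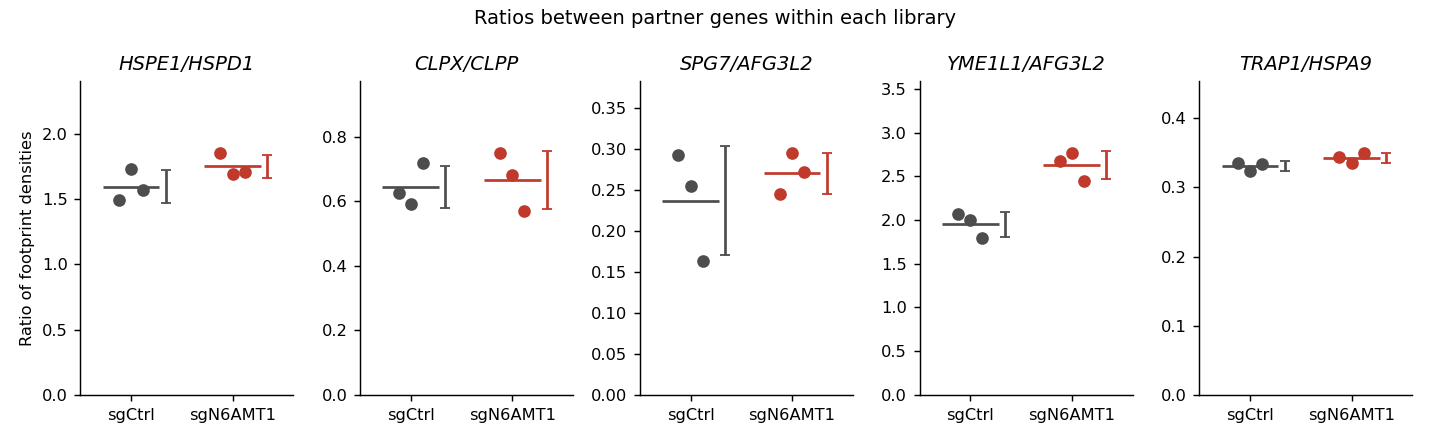
Ratio of footprint densities between 5 pairs of partner genes in each library, sgCtrl (grey) and sgN6AMT1 (red), with means (lines) and 1 SD (bars, n = 3); axes start at 0. The YME1L1 to AFG3L2 ratio lies between 1.79 and 2.07 in sgCtrl and between 2.45 and 2.76 in sgN6AMT1, and the other 4 pairs overlap.

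The partners of these chaperones and proteases were followed in 4 lists of other genes, of which 36 were tested. Together 7 were lower and 2 were higher, with groups that did not overlap in 13, against the 13.9%, 12.9% and 37.5% of all tested genes given above. Among 10 tested partners of mtHsp70 and other mitochondrial chaperones, 1 was lower and 0 were higher, and their median log2 fold change was -0.04. Of the 10, 0 were higher by edgeR at an unadjusted p under 0.05, and DESeq2 and limma-voom also called 0 higher. TIMM44, which tethers mtHsp70 to the import channel, stood at 130.1, 138 and 131 CPM in sgCtrl and 99.1, 118 and 102 CPM in sgN6AMT1. All depleted libraries were below all sgCtrl libraries (log2 fold change -0.32, SE 0.087, edgeR adjusted p = 0.0024). The nucleotide exchange factors GRPEL1 (-0.13) and GRPEL2 (-0.04) and the J protein DNAJA3 (0.13), which drive the ATP cycle of mtHsp70, did not pass the threshold (edgeR adjusted p = 0.372, 0.850 and 0.268). CLPB of this list was not analysed here.

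Among 13 other mitochondrial proteases and peptidases, 2 were lower and 0 were higher by edgeR (4 and 1 at an unadjusted p under 0.05), with a median log2 fold change of -0.15. DESeq2 called 0 in either direction after adjustment and 2 lower before it, and limma-voom called 3 lower. OMA1, the stress-activated inner membrane protease that also cuts OPA1, had 62, 112 and 58 counts under sgCtrl against 60, 54 and 35 under sgN6AMT1, or means of 32.8 ± 5.21 and 22.9 ± 3.67 CPM (SD, n = 3, log2 fold change -0.53, SE 0.16, edgeR adjusted p = 0.0077). The groups did not overlap after scaling, and the call was lost with DESeq2 (adjusted p = 0.131) and without sgCtrl 2 (0.156). ATP23, listed under the older symbol XRCC6BP1, is a metallopeptidase of the intermembrane space. It stood at 22.6, 24.5 and 31.1 CPM in sgCtrl and 18.8, 16.0 and 15.2 CPM in sgN6AMT1 (log2 fold change -0.63, SE 0.18, edgeR adjusted p = 0.0060), and its call was lost with DESeq2 (adjusted p = 0.0922) and without sgCtrl 3 (0.0591). Both subunits of the presequence-cutting peptidase, PMPCA and PMPCB, stood near 0 (log2 fold changes 0.09 and 0.04).

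Among 8 scaffolds, adaptors and targets of the AAA proteases, 3 were lower and 0 were higher by edgeR, also at an unadjusted p under 0.05, with a median log2 fold change of -0.13. DESeq2 called 2 lower and 0 higher. PHB2, which with PHB forms the ring that surrounds the m-AAA protease, stood at 348, 336 and 325 CPM in sgCtrl and 254, 254 and 242 CPM in sgN6AMT1 (log2 fold change -0.43, SE 0.062, edgeR adjusted p = 1.87e-08). Its ring partner PHB stood at 391.6 ± 17.6 and 399 ± 9.15 CPM (SD, n = 3; log2 fold change 0.03, 95% interval -0.08 to 0.14, edgeR adjusted p = 0.746). The 95% interval of PHB2, -0.55 to -0.30, does not reach that of PHB, although the difference between the 2 genes was not tested itself.

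OPA1, the fusion protein cut by YME1L1 and OMA1, stood at 141, 154 and 138 CPM in sgCtrl and 112, 118 and 105 CPM in sgN6AMT1 (log2 fold change -0.37, SE 0.084, edgeR adjusted p = 0.0003). The groups did not overlap, and the call held in all 16 alternatives. AFG1L, listed as LACE1, is an inner membrane ATPase. It stood at 10.5, 15.9 and 14.3 CPM in sgCtrl and 10.1, 6.48 and 8.69 CPM in sgN6AMT1 (log2 fold change -0.72, SE 0.25, edgeR adjusted p = 0.0249), and its call was lost with DESeq2 (adjusted p = 0.231) and without sgCtrl 2 (0.175), sgCtrl 3 (0.0547) or sgN6AMT1 2 (0.174).

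Of the 6 genes that signal mitochondrial protein stress, 5 were tested, of which 2 were higher and 1 was lower. EIF2AK1 (HRI), the kinase that relays mitochondrial stress to the initiation factor eIF2, stood at 78.9, 107 and 90.7 CPM in sgCtrl and 131, 128 and 123 CPM in sgN6AMT1 (log2 fold change 0.45, SE 0.092, edgeR adjusted p = 4.65e-05). ATF4, the transcription factor whose translation that relay favours, stood at 22.1, 29.3 and 25.1 CPM in sgCtrl and 39.0, 39.3 and 33.1 CPM in sgN6AMT1 (log2 fold change 0.53, SE 0.15, edgeR adjusted p = 0.0041). In both genes all depleted libraries were above all sgCtrl libraries, and the ATF4 call was lost with DESeq2 (adjusted p = 0.0967). ATF5, a related factor known for raising HSPD1, HSPA9 and LONP1 in the mitochondrial unfolded protein response, had 26, 36 and 18 counts under sgCtrl against 7, 12 and 10 under sgN6AMT1. It fell the furthest of the 36 genes (log2 fold change -1.35, SE 0.31, edgeR adjusted p = 0.0003).

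DELE1, listed as KIAA0141 and known as the messenger that OMA1 cuts to reach EIF2AK1, stood at 43.4 ± 2.41 and 52.03 ± 6.52 CPM (SD, n = 3; log2 fold change 0.26, edgeR adjusted p = 0.105), and it passed the threshold with total counts alone and without sgN6AMT1 2. The heat shock factor HSF1 had a log2 fold change of 0.07 (edgeR adjusted p = 0.720). DDIT3, which encodes the stress factor CHOP, was too low to be tested, with 5, 11 and 7 counts under sgCtrl against 3, 2 and 2 under sgN6AMT1.

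**Figure D5:**
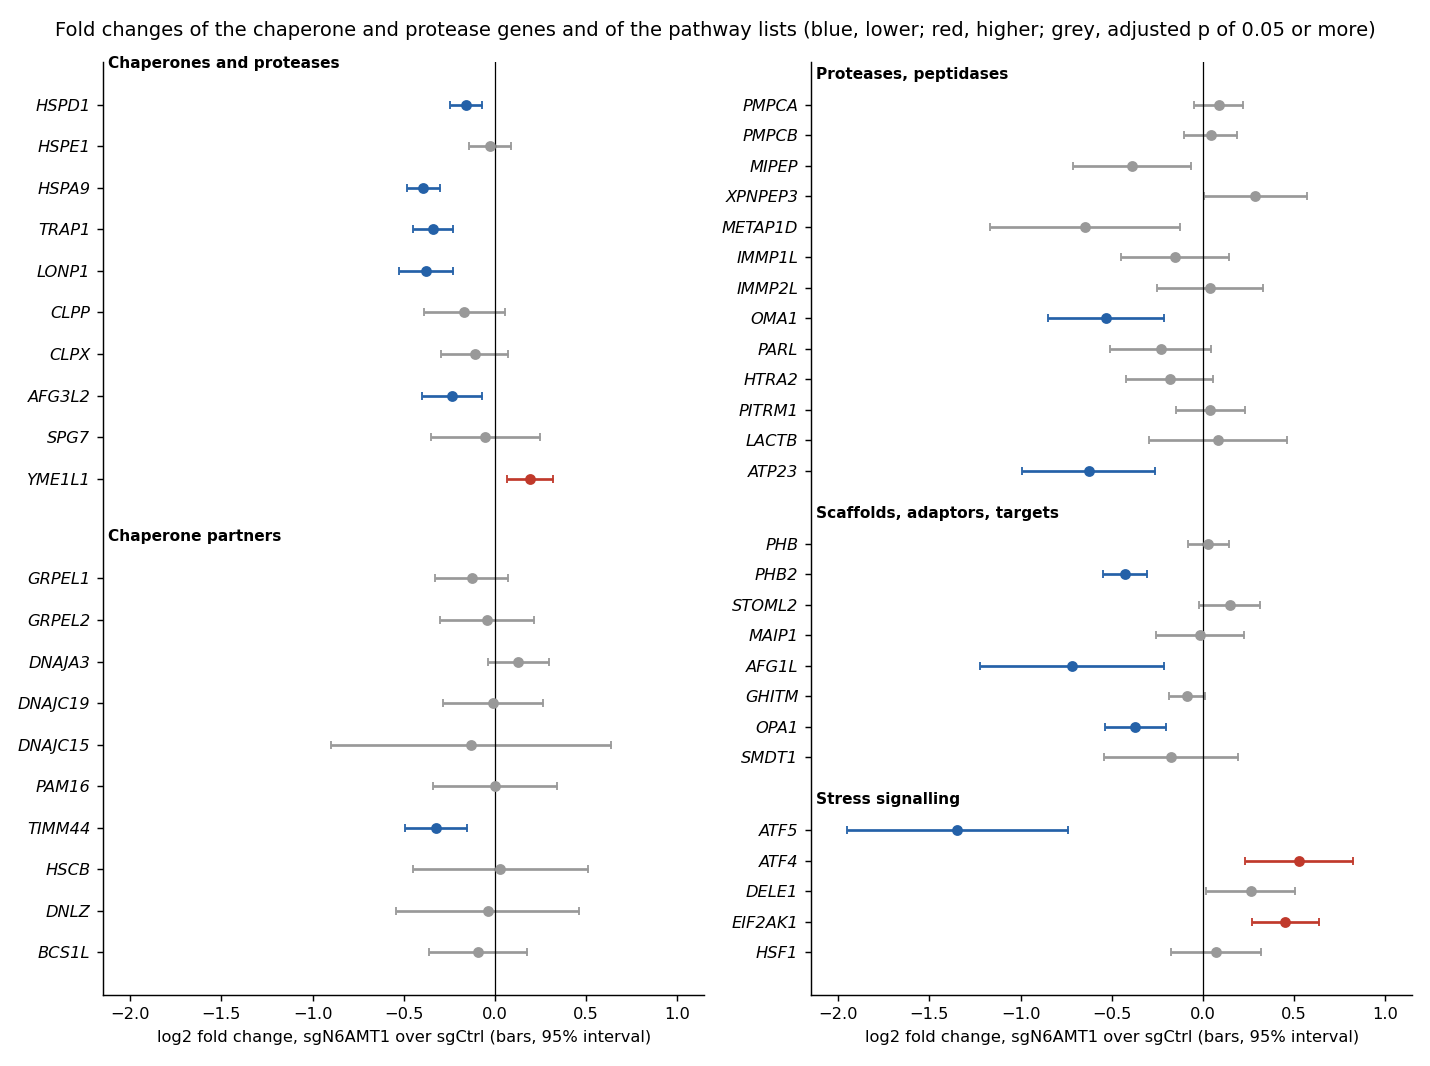
Log2 fold change (sgN6AMT1 over sgCtrl) with its 95% interval for the 10 chaperone and protease genes and the 36 tested genes of the 4 pathway lists (blue, lower; red, higher; grey, adjusted p of 0.05 or more). HSPA9, TRAP1 and LONP1 lie near one another at -0.39, -0.34 and -0.38, YME1L1 is at 0.19, and ATF5 at -1.35 is the farthest from 0; the values of HSPE1 and SPG7 change sign when libraries are scaled to total counts alone.

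Chaperones of other compartments and the import machinery were described in the same way. Their counts stand beside the shares of all tested genes, 13.9% lower and 12.9% higher. Among the 4871 genes with at least the mean CPM of SPG7 these shares were 21.1% and 14.6%. Of 16 cytosolic chaperones, 8 were lower and 3 were higher, with a median log2 fold change of -0.13. The largest changes past the threshold in each direction were those of CCT8 (-0.37, edgeR adjusted p = 2.88e-10), a subunit of the cytosolic chaperonin TRiC, and DNAJB1 (0.25, edgeR adjusted p = 0.0471), an Hsp40 whose call was lost in 9 of 16 alternatives. Of 12 chaperones of the endoplasmic reticulum, 1 was lower (CANX, -0.24, edgeR adjusted p = 1.28e-05) and 1 was higher (CALR, 0.21, edgeR adjusted p = 0.0001), both lectin chaperones, with a median of 0.02 that crossed 0 with trends on length and GC content removed (-0.0074) and without sgCtrl 1 (-0.0027) or sgN6AMT1 3 (-0.0022). Of 20 import genes, 3 were lower and 3 were higher (15.0% each, near the shares of all tested genes), with a median of -0.07. The largest changes past the threshold were those of the intermembrane space chaperones TIMM10 (-0.84, edgeR adjusted p = 6.35e-11) and TIMM9 (0.56, edgeR adjusted p = 0.0027), which work as 1 complex. The TIMM9 call was lost with DESeq2 (adjusted p = 0.0924) and without sgN6AMT1 1 (0.0529). Whether the 10 mitochondrial genes differ from these lists was not tested.

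The coding sequences of the 10 genes ranged from 309 bases (HSPE1) to 2880 (LONP1), with a median of 2077.5 against 1395 over the 8607 tested genes with a known length. Their GC content ranged from 41.1% (YME1L1) to 64.1% (CLPP), with a median of 47.1% against 50.9%. The 3 genes that fell most had GC contents of 46.3% (HSPA9), 57.9% (TRAP1) and 62.7% (LONP1), on both sides of that median. Their coding lengths of 2040, 2115 and 2880 bases were all above 1395, as was that of YME1L1 (2322), which rose. The part of length or GC content in these changes was not tested. Longest runs of bases shared between AFG3L2 and its relatives were 15 with SPG7 and 14 with YME1L1, both shorter than a ribosome footprint.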

How the data were processed

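Ribo-Seq counts of 3 sgCtrl and 3 sgN6AMT1 libraries of K562 cells were used, grouped by the labels. The authors trimmed reads with cutadapt, kept footprint lengths, mapped them with HISAT2 to GRCh38, removed rRNA and tRNA reads, mapped the rest with bowtie2 to 1 canonical transcript per gene and assigned P-sites with riboWaltz. The deposited counts are whole numbers, neither normalized nor pooled. The methods name both P-sites summed over coding sequences and overlaps with an annotation, and which of these the table holds is not stated. Cycloheximide was in the lysis buffer. Without described molecular identifiers, reads are not independent molecules and intervals from counting alone would be too narrow. Footprints were not set against RNA levels, and translational efficiency was not analysed here. The submitters' processing notes name Bowtie2 and cutadapt without versions.

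Genes passing filterByExpr (minimum 10 counts) were compared between groups by edgeR 4.0.16 (R 4.3.3): TMM factors, the robust quasi-likelihood F test (2-sided), Benjamini-Hochberg adjustment over 9202 genes, threshold 0.05. The 10128 genes removed held 0.465% of counts. Fold changes are given as log2 of sgN6AMT1 over sgCtrl, their SE taken from the F statistic, and the common biological coefficient of variation was 4.36%. Alternatives were DESeq2 1.42.0, limma-voom (limma 3.58.1), RLE and upper-quartile factors, total counts alone, no filter, a mean of at least 50 counts, the replicate number as a block, loess trends (span 0.5) on coding length and GC content removed, thinning to the smallest total, and leaving out each library. Same-numbered libraries of the 2 groups deviated from their group means with correlations of -0.0612, 0.0198 and 0.0162, so the numbers were not taken to pair samples.

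Ratios of counts per kilobase were compared by 2-sided exact permutation tests over libraries. Positions and sequences came from GENCODE release 44, matched by transcript identifier without version (17687 transcripts, 91.5%; 17537 with a coding sequence), and promoters from RefSeq. The fit was also run on simulated data with changes larger than those of the 10 genes. That run does not show how well changes of their size are recovered. The 10 genes and the lists were chosen with earlier results of these data known. Named were the 10 genes and N6AMT1, from each of the 4 pathway lists up to 3 genes past the threshold in each direction plus ATF4, ATF5, DDIT3, DELE1 and OMA1, and from each comparison list the largest change past the threshold in each direction. GRPEL1, GRPEL2, DNAJA3, PMPCA, PMPCB, PHB, HSF1, the K562 markers and the gene sharing sequence with HSPE1 were named after their values were seen.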

Additional observations from a re-analysis of the deposited data

How the results depend on the processing

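HSPA9, TRAP1 and LONP1 kept their direction and call in all 16 alternatives, and so did TIMM44, PHB2, OPA1 and EIF2AK1. DESeq2 called 1324 genes (585 higher, 739 lower) against 2473 by edgeR. Of the 10 chaperone and protease genes it called 0 higher and lost AFG3L2 (log2 fold change -0.25) and YME1L1 (0.18), and it called 0 of the other proteases. Total counts alone shifted the median of all genes to 0.0609 and the split of calls to 1560 higher and 976 lower, from 1191 and 1282. With them 3 of the 10 genes were lower and their median was -0.11, HSPD1 (-0.10) and AFG3L2 (-0.18) were lost, and HSPE1 (0.0275) and SPG7 (0.0010) turned positive, as SPG7 did after thinning (0.0058). The medians of the cytosolic, endoplasmic reticulum and import lists were then -0.0758, 0.0741 and -0.0169, with 4 calls in the second. Removing trends on coding length and GC content gave a split of 1030 higher and 1490 lower, called CLPP (-0.26), and gave 2 calls and a median of -0.15 for the mtHsp70 partners and a median of -0.19 for import. A mean of at least 50 counts left 1 call among the other proteases, with medians of -0.0308 there, -0.0272 for the scaffolds and -0.10 for the cytosolic chaperones. The cause of these moves was not tested.

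Leaving out each library gave 1859 to 2322 calls (906 to 1119 higher, 953 to 1203 lower), 0 to 1 higher and 4 to 5 lower of the 10 genes, and a median of -0.21 to -0.13. Log2 fold changes ranged from -0.11 to 0.0463 for HSPE1, -0.27 (without sgN6AMT1 3, adjusted p = 0.0862) to -0.11 for CLPP, -0.15 to -0.0587 (without sgCtrl 3) for CLPX, -0.27 to -0.20 for AFG3L2, -0.23 to 0.0643 for SPG7 and 0.15 to 0.22 for YME1L1. Without a library, the other proteases had 1 to 3 calls and a median of -0.23 to -0.0154, the mtHsp70 partners a median of -0.14 to 0.0673, the scaffolds -0.21 to -0.0741 and the import genes -0.11 to -0.0352 (without sgN6AMT1 1). The log2 difference in ratio ranged from -0.0431 to 0.15 for CLPX to CLPP and from -0.0166 to 0.40 for SPG7 to AFG3L2. With the replicate number as a block, 2390 genes were called (1167 higher, 1223 lower), among them 6 of the 10, and no call of the 10 changed.

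With 3 libraries a group, the depth leaves SPG7 with an interval that holds both 0 and the change of AFG3L2. A footprint shared by HSPE1 and HSPE1-MOB4, or by a gene and any copy identical there, cannot be assigned.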
